A study of Rattus norvegicus with 36 samples.

Results

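The comparison of kidneys 2 h after ischemia with normal kidneys covered 8 of the 36 arrays and 7 of the 31 rats of a series on acute renal failure. Its arrays were chosen by their labels alone. The ischemia group was 4 male rats (4 arrays) whose kidneys were both deprived of blood for 40 min and then reperfused for 2 h. The normal group was 3 untreated male rats, numbered 1 to 3 (4 arrays, since rat 2 had a second array of another RNA aliquot, averaged with its first). Further groups used below were ischemia for 40 min with 8 h of reperfusion (3 rats), mercuric chloride (4 mg/kg) with collection 2 h later (3 rats), and volume depletion by furosemide at 20 mg/kg, given again at 8 h, with a sodium-deficient diet, studied at 24 h (4 rats). All rats were male and 6 to 8 weeks old, and the labels used here give no strain or genotype. RNA came from minced kidney tissue with all its cell types. No sham-operated rats were studied at 2 h, so effects of surgery, anesthesia and ischemia cannot be told apart in the 2 h comparison.

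When blood returns to a kidney after a period without it, tubular cells that have lost ATP meet oxygen again, and injury is usually most severe in the straight part of the proximal tubule. Within minutes to hours, kinase cascades switch on immediate early genes through factors already present in the cell, while misfolded protein and amino acid shortage switch on chaperones and the integrated stress response. Endothelium and tubules then release chemokines and display adhesion molecules that draw leukocytes.

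Expression was measured on 1-colour CodeLink oligonucleotide arrays with 9911 probes, and levels below are multiples of the array median, with everything under 0.1 set to a floor of 0.1. Changes are differences of mean log2 levels (ischemia minus normal) with their SE, and a gene was called where its Benjamini-Hochberg adjusted p in limma, fitted over all 31 rats and adjusted over all probes, was under 0.05. A level is given for 1 probe of a gene and is not comparable between genes. The 4 ischemia rats correlated with each other at 0.984 to 0.991 over all probes and the 3 normal rats at 0.970 to 0.988, while pairs across the groups reached 0.956 to 0.972. Normal rat 1 correlated least with its group (0.976), and its level of Umod, the loop of Henle protein uromodulin, was 8.17, against 56.2 and 73.7 in normal rats 2 and 3. Results that rest on it are given with and without it. The series used array lots of 24 and 12, and the labels do not say which array was of which lot. A set of 47 probes with no value on any array of normal rats 11 and 12 was measured on every array of the ischemia 2 h rats and of normal rats 1 to 3, which therefore share this feature. Kidney markers were high in both groups: Kap, an androgen-regulated proximal tubule protein, lay at 114 to 139 in ischemia rats and at 98.1 to 180 in normal rats, and Lrp2, the endocytic receptor megalin, at 41.3 to 55.7 in ischemia rats and 53.9 to 66.1 in normal rats. The adrenal enzyme Cyp11b1 and the fat cell protein Plin1 were at the floor in all 7 rats. Other markers of these tissues were above the floor in all 7 rats. The adrenal enzyme Cyp21a1 lay at 0.44 to 0.56, and the fat cell genes Adipoq and Fabp4 at 0.63 to 1.58 and 0.66 to 1.81.

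Of 6188 genes tested, 492 were called higher (7.95%) and 375 lower (6.06%) in ischemia kidneys. Rises were larger than falls. Among called genes the median change was 0.82 for rises and -0.50 for falls on the log2 scale, and the median over all genes was -0.06. A change of at least 2-fold was reached by 196 genes that rose and 21 that fell, a change of at least 4-fold by 64 genes that rose and by none that fell. The 4 ischemia rats did not overlap the 3 normal rats in 461 of the 492 genes called higher and in 350 of the 375 called lower, whereas over all genes tested 10.9% lay above and 14.1% below the normal rats with no overlap. When each of the 7 rats was left out in turn, 330 of the rises and 130 of the falls stayed called every time. Leaving out normal rat 1 had the most effect on the falls, of which 158 stayed called, while 373 of the 375 kept their sign. Of 92 genes named or listed here that had several probes, 20 had probes that differed in their call, and the other probes are given where such a gene is named. In tissue RNA, fewer cells of a type and less RNA per cell cannot be told apart.

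**Figure D1:**
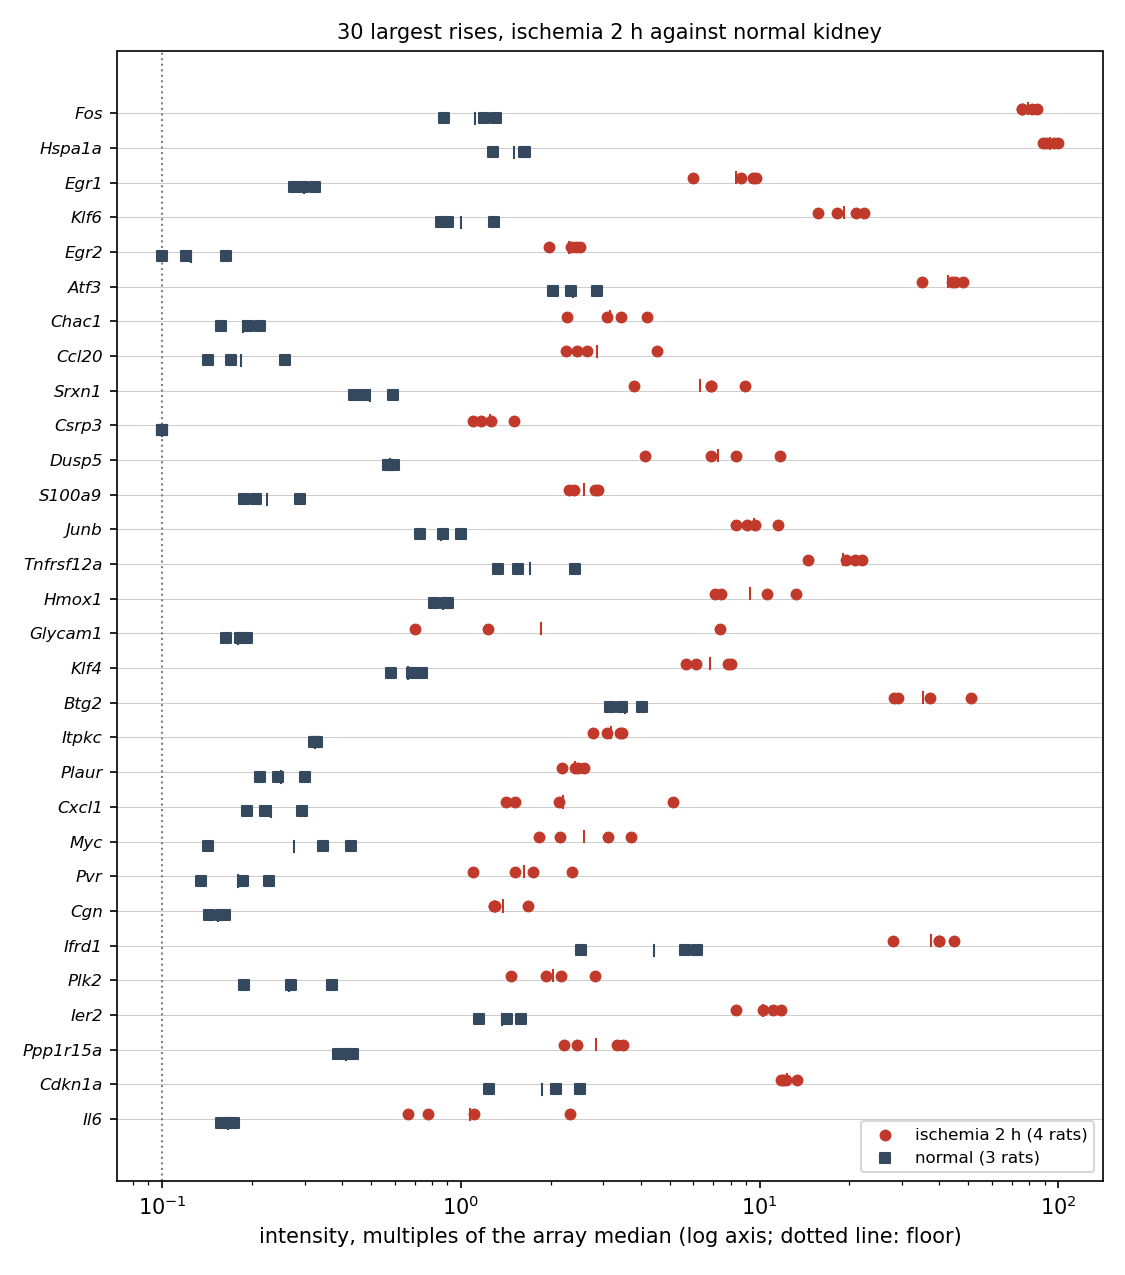
Levels of the 30 genes with the largest rises, in multiples of the array median on a log axis, in 4 ischemia 2 h rats (red circles) and 3 normal rats (dark squares); short vertical lines are group means of log2 values and the dotted line is the floor of 0.1. No ischemia rat overlaps a normal rat, which the rule for choosing these genes required, and Csrp3 lies at the floor in all 3 normal rats.

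Of 7 AP-1 factors tested 6 rose and none fell, with a median change of 1.84, and all 6 calls held whichever rat was left out. AP-1 is a dimer of Fos and Jun family proteins that binds DNA beside many stress genes. Fos stood at 81.8, 75.6, 75.6 and 85.2 in ischemia rats 1 to 4, against 0.879, 1.31 and 1.20 in normal rats 1 to 3. The groups were far apart, and the ischemia rats varied little around their mean. The change was 6.16 ± 0.66, a 71.4-fold rise. Atf3, a stress-induced repressor and activator of the same family, reached 48.2, 45.3, 34.9 and 44.0 in ischemia rats, against 2.03, 2.85 and 2.34 in normal rats (4.17 ± 0.44). Junb was at 9.68, 8.33, 11.5 and 9.11 in ischemia rats, against 0.728, 0.872 and 0.998 in normal rats (3.48 ± 0.35). Both genes were higher in every ischemia rat than in any normal rat, as the choice of the largest rises required. Smaller rises were those of Fosl1 (1.84 ± 0.23), Jun (1.79 ± 0.35) and Jdp2 (0.94 ± 0.13). The seventh member, Jund, was not called, with 0.261, 0.285, 0.237 and 0.275 in ischemia rats and 0.269, 0.286 and 0.331 in normal rats (-0.16 ± 0.15, adjusted p = 0.599). Probes of a gene did not always give the same size: a dimmer probe for Atf3 changed by 6.58 and one for Fosl1 by 3.49, both called, while another probe for Jdp2 changed by -0.09 and was not called (adjusted p = 0.733).

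Among Egr, Nr4a, Klf and other early factors 18 of 23 rose and 1 fell (4.35%, against 6.06% of all genes), with a median change of 1.78. All 19 calls held whichever rat was left out. Egr1, a zinc finger factor induced by growth factors and strain, stood at 8.70, 9.52, 9.75 and 5.97 in ischemia rats, against 0.326, 0.297 and 0.277 in normal rats (27.8-fold). Its lowest value was in ischemia rat 4, still far above every normal rat. Its relative Egr2 stood at 2.50, 1.98, 2.44 and 2.33 in ischemia rats, while normal rats had 0.164, 0.120 and 0.1, the last of these at the floor (4.20 ± 0.59). Klf6, a factor known for its induction in injured tissue, had 21.0, 22.4, 18.2 and 15.7 in ischemia rats and 1.29, 0.909 and 0.861 in normal rats (4.25 ± 0.40). Klf4, which governs epithelial differentiation, was raised 10.3-fold (3.36 ± 0.19). Klf10 (1.91 ± 0.15) and Klf5 (1.48 ± 0.21) rose less, and Klf15, a regulator of nitrogen and energy metabolism, was the member that fell, to 2.30, 1.74, 1.65 and 1.52 in ischemia rats, against 2.73, 3.00 and 2.98 in normal rats (-0.71 ± 0.14). The transcription factor Myc, a driver of growth, rose by 3.23 ± 0.48, and by 2.75 without normal rat 1, in which its level was lowest. Also higher were Ier2 (2.90 ± 0.40), the matricellular protein Ccn1 (2.40 ± 0.27), the kinase Sik1 (2.17 ± 0.30), Cebpd (1.83 ± 0.27) and Id1 (1.78 ± 0.23), an inhibitor of helix-loop-helix factors. The nuclear receptor Nr4a2 was not called (3.38, 3.58, 3.11 and 3.06 in ischemia rats, 2.80, 3.33 and 3.04 in normal rats, 0.10 ± 0.12).

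The proximal promoters of these factors were read from RefSeq sequence (GRCr8), as the 250 bases before the annotated start of each gene. They are printed because Egr1, Klf6 and Egr2 are 3 of the 4 genes among the largest rises whose window holds a CArG box, the site bound by serum response factor. Capitals mark the CArG boxes, found on either strand. The Egr1 window (chr18:26736828-26737077, plus strand) holds 2, the Klf6 window (chr17:69458479-69458728, minus strand) 1 and the Egr2 window (chr20:21054442-21054691, minus strand) 1.
Egr1: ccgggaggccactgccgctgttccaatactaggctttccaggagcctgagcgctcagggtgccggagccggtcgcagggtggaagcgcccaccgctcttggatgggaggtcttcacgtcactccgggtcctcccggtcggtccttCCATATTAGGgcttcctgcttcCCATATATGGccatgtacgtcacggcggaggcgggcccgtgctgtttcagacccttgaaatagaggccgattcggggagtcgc
Klf6: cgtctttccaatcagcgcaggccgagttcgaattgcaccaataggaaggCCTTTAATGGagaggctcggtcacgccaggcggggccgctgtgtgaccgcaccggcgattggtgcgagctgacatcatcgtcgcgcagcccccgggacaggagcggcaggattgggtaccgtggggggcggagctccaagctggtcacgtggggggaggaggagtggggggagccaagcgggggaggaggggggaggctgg
Egr2: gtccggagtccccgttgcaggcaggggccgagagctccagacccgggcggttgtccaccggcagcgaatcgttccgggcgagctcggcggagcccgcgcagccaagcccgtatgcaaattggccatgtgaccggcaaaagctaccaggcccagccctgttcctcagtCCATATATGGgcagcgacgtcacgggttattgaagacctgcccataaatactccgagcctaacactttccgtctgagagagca
Counted from the start, these boxes lie at bases -105 to -96 and -83 to -74 in Egr1, -201 to -192 in Klf6 and -83 to -74 in Egr2. A promoter window could be matched for 25 of the 30 genes with the largest rises, and 4 of these (16%) held a CArG box, the fourth being Dusp5, against 59 of the 5064 windows of all measured genes matched (1.17%). The box was present in 2.03% of the windows of genes called higher and in 0.318% of those called lower. The cyclic AMP response element TGACGTCA, which reads the same on both strands, was present in 5 of the 25 windows (20%), against 2.74% of all windows. These 5 were the windows of Btg2, Plk2, Ier2, Ppp1r15a and Il6. The element was present in 5.33% of the windows of genes called higher and in 1.59% of those called lower. The AP-1 site TGANTCA was present in 8.12% of the windows of genes called higher, in 2.55% of those called lower and in 4.42% of all. The heat shock element, searched as GAANNTTC or TTCNNGAA, was about as frequent in genes called higher (9.64%) as in all genes (9.68%). All motifs were searched on both strands, matches may overlap, and a match is a description of letters, not of a bound site. No test was made, since the genes were chosen by their change.

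Inhibitors that end such signals rose with them. Of 20 feedback inhibitors 14 rose and none fell, with a median of 0.95, and 13 of the 14 calls held whichever rat was left out. Dusp5, a nuclear phosphatase of the ERK kinases, stood at 8.34, 6.87, 4.12 and 11.7 in ischemia rats, against 0.569, 0.597 and 0.576 in normal rats (12.5-fold). The normal rats hardly differed, while the ischemia rats spread from 4.12 in rat 3 to 11.7 in rat 4. Dusp8, which acts on the JNK and p38 kinases, rose 5.41-fold and Dusp6, which acts on ERK, 2.07-fold. Zfp36 (tristetraprolin), which destabilises cytokine mRNA, had 20.0, 19.4, 19.5 and 23.7 in ischemia rats and 4.15, 5.47 and 4.67 in normal rats (2.12 ± 0.30). Rgs2, a brake on G protein signals, rose by 1.55 ± 0.23 and Nfkbie, an inhibitor of NF-kB, by 0.97 ± 0.23. Socs3, an inhibitor of cytokine receptors, was not called (0.220, 0.220, 0.317 and 0.275 in ischemia rats, 0.281, 0.191 and 0.213 in normal rats), nor were Socs2 or Cish. Rrad, a small GTP-binding protein, was the call that did not hold, with a change of 0.89 ± 0.26 and adjusted p = 0.101 without normal rat 3, 0.0622 without ischemia rat 4 and 0.0569 without normal rat 2.

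Hspa1a, the inducible Hsp70 that refolds damaged protein, stood at 91.4, 88.7, 99.6 and 97.0 in ischemia rats, against 1.28, 1.63 and 1.64 in normal rats. The 4 ischemia rats lay within a narrow band, 62.4-fold above normal (5.96 ± 0.32). Of 16 heat shock proteins and co-chaperones tested 9 rose and none fell (median 0.67). Bag3, an Hsp70 partner that directs client proteins to autophagy, reached 17.8, 21.8, 30.1 and 18.4 in ischemia rats, against 3.95, 6.87 and 5.22 in normal rats (2.05 ± 0.44). The collagen chaperone Serpinh1 (1.67 ± 0.18) and the small heat shock protein Cryab (1.67 ± 0.18) rose about equally. The constitutive chaperones Hspa8 (0.66 ± 0.19) and mitochondrial Hspd1 (0.60 ± 0.11) rose less. The calls of Hspa8 (adjusted p = 0.146 without normal rat 3) and of Bag2 (0.0935 without ischemia rat 4, 0.0885 without normal rat 1 and 0.0506 without normal rat 2) did not hold, and the other 7 did. The master regulator Hsf1, which is controlled mainly as a protein, was not called (-0.11 ± 0.11), nor was Hspb8 (0.65 ± 0.22, adjusted p = 0.0511).

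Genes of the integrated stress and unfolded protein responses rose in part. Of 22 tested 9 rose and none fell, with a median of 0.33, and all 9 calls held whichever rat was left out. Chac1, which degrades glutathione and is a target of the factor ATF4, had 3.08, 2.26, 3.43 and 4.21 in ischemia rats, against 0.213, 0.194 and 0.158 in normal rats. Its change of 4.09 ± 0.18 was large against its error, and the groups were far apart. Its promoter window (chr3:126795881-126796130, plus strand, GRCr8) holds the ATF4 element TGATGNAA on the minus strand, here in capitals. This element was present in 1.94% of all windows, in 2.54% of those of genes called higher and in 1 of 25 windows of the largest rises.
Chac1: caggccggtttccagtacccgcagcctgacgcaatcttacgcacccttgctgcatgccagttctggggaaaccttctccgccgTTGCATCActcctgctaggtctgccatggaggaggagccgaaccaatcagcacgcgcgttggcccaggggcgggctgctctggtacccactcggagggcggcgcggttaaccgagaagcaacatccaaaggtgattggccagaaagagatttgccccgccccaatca
Ppp1r15a, the phosphatase subunit that restores translation, had 2.46, 2.22, 3.50 and 3.34 in ischemia rats and 0.388, 0.437 and 0.416 in normal rats (2.77 ± 0.26). Mthfd2, a mitochondrial folate enzyme, rose by 2.06 ± 0.21 from near the floor. Endoplasmic reticulum genes rose less: the chaperone Hspa5 had 71.0, 67.8, 77.5 and 79.9 in ischemia rats and 21.9, 29.5 and 25.8 in normal rats (2.89-fold), and Dnajb9 (2.64-fold), Herpud1 (2.51-fold), Creld2 (2.37-fold) and Manf (2.13-fold) followed. Asns, another ATF4 target, was at 3.16, 3.42, 3.30 and 3.60 in ischemia rats and 3.03, 3.34 and 3.36 in normal rats and was not called, and neither were Slc3a2 (-0.02 ± 0.16) or the disulfide isomerase Pdia4 (0.40 ± 0.16).

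Of 19 antioxidant and metal response genes 3 rose (15.8%, against 7.95% of all genes) and none fell, and the median was -0.08. Srxn1, which reactivates oxidised peroxiredoxins, had 6.89, 6.90, 3.80 and 8.96 in ischemia rats, against 0.474, 0.592 and 0.440 in normal rats (3.67 ± 0.27), with its lowest value in ischemia rat 3. Hmox1, which breaks down heme, had 7.44, 7.10, 13.2 and 10.6 in ischemia rats, against 0.904, 0.894 and 0.814 in normal rats (3.41 ± 0.28), with its highest value in ischemia rat 3. The third, Nfe2l2, encodes the factor NRF2 that controls many of this list. Its change was 0.38 ± 0.13, and its call was lost when any one of 6 rats was left out, with an adjusted p of up to 0.144. Nqo1, a classical NRF2 target, was not called (0.979, 0.400, 0.832 and 1.08 in ischemia rats, 0.724, 0.833 and 0.661 in normal rats), and neither were Gclc, Gclm, Gsr, Prdx1, Txnrd1 or Mt1. Fth1, the ferritin heavy chain, had a level of 3.67, 2.06, 49.0 and 37.3 in ischemia rats and 23.2, 39.1 and 48.2 in normal rats, so that ischemia rats 1 and 2 lay far below rats 3 and 4, and it was not called.

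Among ligands, 11 of 23 listed chemokines and cytokines rose and none fell (median 0.57; Cxcl9, which fell, was not in the list), and 7 of the calls held whichever rat was left out. Ccl20, a chemokine for lymphocytes and dendritic cells, stood at 2.44, 2.26, 4.54 and 2.64 in ischemia rats, against 0.142, 0.170 and 0.257 in normal rats (3.95 ± 0.42). The neutrophil chemokine Cxcl1 had 1.42, 2.13, 5.15 and 1.52 in ischemia rats, against 0.220, 0.193 and 0.294 in normal rats (3.25 ± 0.44). Il6 had 0.775, 1.11, 2.32 and 0.667 in ischemia rats, against 0.175, 0.158 and 0.166 in normal rats (2.69 ± 0.36). All 3 were highest in ischemia rat 3. They did not overlap the normal rats, as the choice of the largest rises required. Cxcl2 (1.76 ± 0.22), the interferon-inducible Cxcl10 (1.61 ± 0.23) and Tgfb3 (1.20 ± 0.17) rose as well. Il24, a cytokine of the IL-10 family, was at the floor in every normal rat and at 0.317, 0.253, 0.348 and 0.294 in ischemia rats, at least 3.01-fold higher. Ccl2, the monocyte chemokine, had 3.34, 5.61, 9.47 and 3.26 in ischemia rats and 0.764, 0.837 and 1.70 in normal rats (2.25 ± 0.60), with an adjusted p of 0.0105, and of 0.0593 without normal rat 1. The calls of Il1b (0.0649 without normal rat 2), Cxcl11 (up to 0.266, lost without normal rat 2 or ischemia rats 3 or 4) and Csf3 (up to 0.275, lost without any rat but ischemia rat 3) did not hold either. Tnf was at 1.19, 1.14, 1.12 and 1.24 in ischemia rats and 0.869, 1.19 and 1.05 in normal rats and was not called. Ccl5 (-0.82 ± 0.32, adjusted p = 0.0868) and Cx3cl1 (-0.48 ± 0.22, adjusted p = 0.172) were lower in mean without passing the test.

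Of 29 cytokine receptors and signal transducers 12 rose and 1 fell (3.45%, against 6.06% of all genes), with a median of 0.40. Of the rises 9 held whichever rat was left out. Tnfrsf12a, the receptor of the cytokine TWEAK, stood at 19.5, 22.1, 14.5 and 20.9 in ischemia rats, against 2.41, 1.33 and 1.55 in normal rats. This 11.1-fold rise was the largest of any receptor in the list. Lifr, the receptor of leukemia inhibitory factor, had 0.743, 0.788, 0.796 and 0.687 in ischemia rats and 0.203, 0.169 and 0.187 in normal rats (2.02 ± 0.13). The TNF receptor Tnfrsf1a (1.43 ± 0.25) and the IL-6 receptor Il6r (1.12 ± 0.24) rose, while the shared subunit Il6st (0.62 ± 0.26) was not called. Downstream, the transcription factors Irf1 (1.22 ± 0.20), Stat3 (0.86 ± 0.12) and Rela (0.79 ± 0.08) and the kinase Map3k8 (0.86 ± 0.16) rose. The calls of Il1r2, Nfkb1 and Irak2 were lost without normal rat 2 (adjusted p = 0.0788, 0.0597 and 0.17), Il1r2 also without ischemia rat 4 (0.0656), and Irak2 also without normal rat 3 or ischemia rats 1, 2 or 4 (up to 0.0925). The member that fell was the fractalkine receptor Cx3cr1, carried by monocytes and macrophages, at 0.1, 0.127, 0.126 and 0.123 in ischemia rats and 0.182, 0.181 and 0.183 in normal rats (-0.62 ± 0.16).

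Of 23 growth factors and their receptors tested 7 rose and 1 fell, a share of 4.35% lower against 6.06% of all genes (median 0.14), and 3 of the rises and not the fall held whichever rat was left out. Areg, a ligand of the EGF receptor, had 0.921, 1.19, 0.774 and 1.76 in ischemia rats, against 0.181, 0.175 and 0.283 in normal rats (2.41 ± 0.48). Its receptor Egfr (0.90 ± 0.21) and Pdgfa (0.77 ± 0.16) were the other rises that held. Other probes of Pdgfa changed by 0.66 (called) and 0.00 (not called). Gdf15, a stress-induced hormone, was called (0.92 ± 0.28), with an adjusted p of 0.185 without normal rat 1, 0.0745 without ischemia rat 1 and 0.0856 without ischemia rat 2. Bmp4 (0.49 ± 0.13) was lost without normal rat 2 (adjusted p = 0.0575), Igfbp6 (0.62 ± 0.19) without any normal rat or ischemia rat 2 (up to 0.12) and Tgfa (0.40 ± 0.14) whichever rat was left out (up to 0.144). Fst, the activin antagonist follistatin, was called lower (-0.73 ± 0.20), with an adjusted p of 0.106 without normal rat 1. Egf itself, made by the thick ascending limb and distal tubule, was not called (7.67, 8.34, 10.1 and 8.79 in ischemia rats, 7.81, 11.5 and 10.6 in normal rats).

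Of 30 genes of adhesion, coagulation and vasomotor control 10 rose and 1 fell (3.33%, against 6.06% of all genes), with a median of 0.11. All 10 rises held whichever rat was left out. Plaur, the urokinase receptor, had 2.18, 2.47, 2.41 and 2.59 in ischemia rats, against 0.302, 0.213 and 0.244 in normal rats (3.27 ± 0.20). Another probe of Plaur changed by 0.35 and was not called (adjusted p = 0.164). The vasoconstrictor peptide Edn1 had 1.59, 1.31, 1.54 and 1.46 in ischemia rats and 0.369, 0.329 and 0.199 in normal rats (2.35 ± 0.17), and the vasodilator Adm 2.12, 1.82, 2.63 and 2.37 in ischemia rats and 0.884, 0.801 and 0.734 in normal rats (1.46 ± 0.19). P-selectin, Selp, which catches rolling leukocytes, had 0.408, 0.337, 1.60 and 0.225 in ischemia rats, with 2 of 3 normal rats at the floor. Ischemia rat 3 stood above the others, and the change of 2.09 ± 0.37 was 1.5 without it, still called. E-selectin, Sele (1.36 ± 0.29), and Icam1 (0.88 ± 0.13) rose, while Pecam1 (-0.03 ± 0.15) was not called. Vcam1 was not called on its brighter probe (0.65 ± 0.30) and was called higher on the other (0.79, adjusted p = 0.00248). On the coagulation side tissue factor F3 (1.05 ± 0.21), the plasminogen activator Plat (1.16 ± 0.16) and the anticoagulant thrombomodulin, Thbd (0.93 ± 0.15), rose together. The inhibitor Tfpi was called lower (-0.46 ± 0.12), with an adjusted p of 0.112 without normal rat 1 and 0.0501 without ischemia rat 2, and its other probes (-0.12 and -0.35) were not called.

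Of 16 genes of tubular injury and dedifferentiation 10 rose and none fell (median 1.09), and 8 calls held whichever rat was left out. Anxa1, an anti-inflammatory phospholipid-binding protein, had 67.8, 68.7, 63.8 and 75.0 in ischemia rats, against 18.1, 17.0 and 21.3 in normal rats (1.88 ± 0.18). Lcn2, the urinary injury marker NGAL, had 0.990, 0.988, 1.38 and 1.73 in ischemia rats and 0.461, 0.382 and 0.449 in normal rats (1.53 ± 0.22), with no overlap. Lgals3 (1.34 ± 0.23), the intermediate filament Vim (1.08 ± 0.14) and the smooth muscle protein Tagln (1.10 ± 0.16) rose. The calls of S100a10 (2.19 ± 0.52, and 1.55 with an adjusted p of 0.061 without normal rat 1) and Clu (0.90 ± 0.30, lost without any rat but ischemia rat 1, adjusted p up to 0.18) did not hold. Havcr1, the proximal tubule injury marker KIM-1, was at 1.08, 0.669, 1.07 and 1.21 in ischemia rats and 0.411, 0.887 and 1.38 in normal rats. The groups overlapped, and the 95% interval of its log2 change ran from -0.49 to 1.10.

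**Figure D2:**
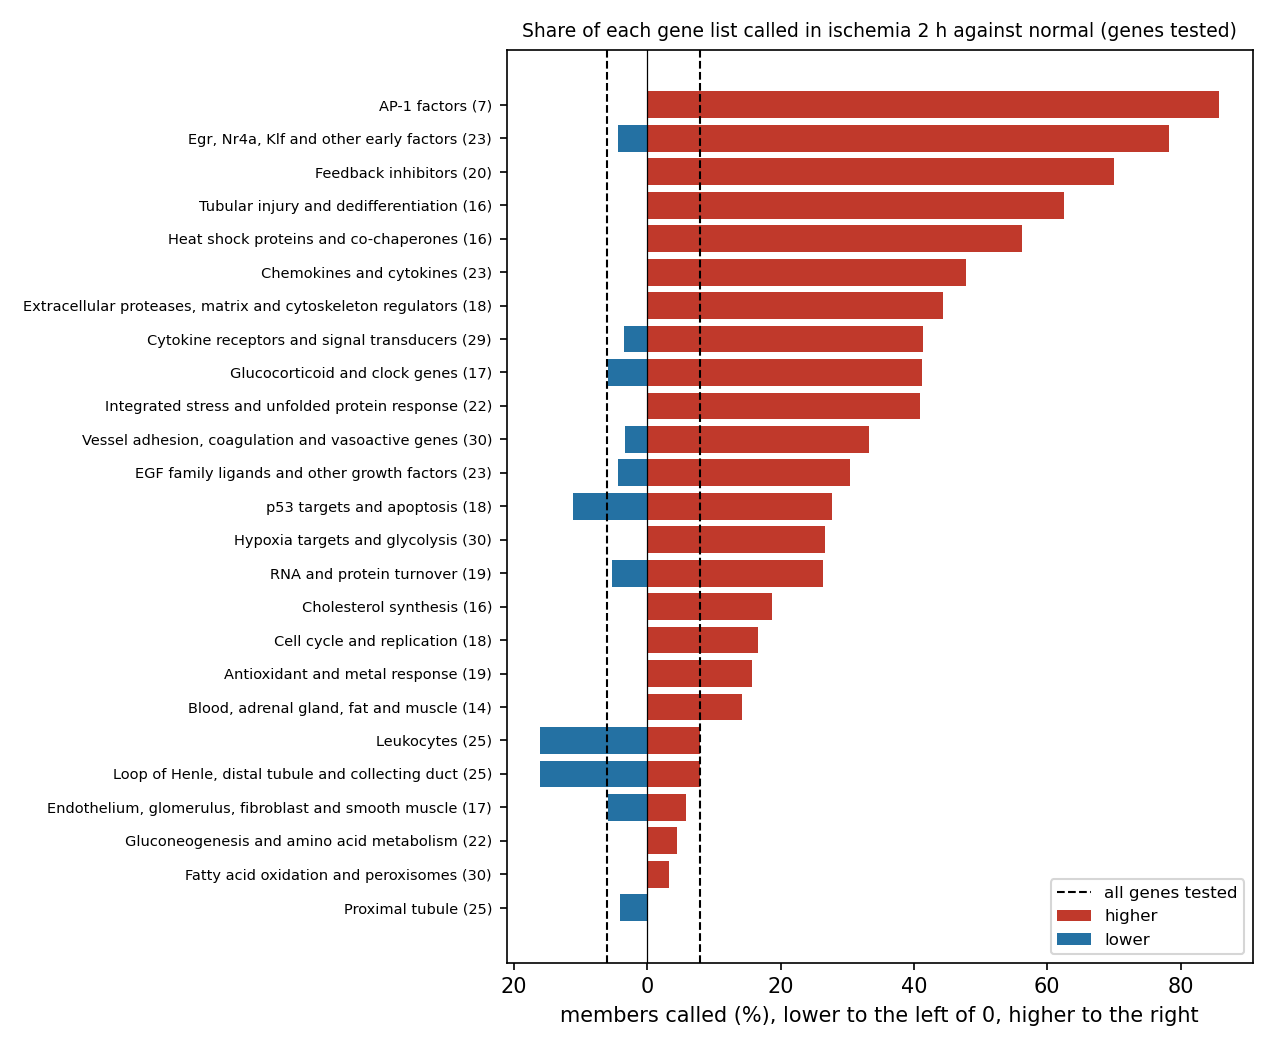
Share of the tested members of each of 25 gene lists that were called higher (red, right of 0) or lower (blue, left of 0) 2 h after ischemia against normal, in percent, with the number of genes tested in brackets; dashed lines give the same shares over all 6188 genes, 7.95% and 6.06%. AP-1 factors lie at 85.7% higher, while the fatty acid oxidation, gluconeogenesis and proximal tubule lists lie below the dashed line for higher calls.

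Among genes of cell fate more were called higher than lower. Of 18 genes of apoptosis or under p53 control 5 rose (27.8%, against 7.95% of all genes) and 2 fell (11.1%, against 6.06%). All 5 rises held whichever rat was left out. Cdkn1a (p21), which halts the cell cycle, had 13.4, 12.2, 11.8 and 12.0 in ischemia rats, against 2.51, 2.08 and 1.25 in normal rats (2.73 ± 0.33). Btg2, an antiproliferative early gene, had 51.0, 29.1, 28.1 and 37.1 in ischemia rats and 3.47, 3.15 and 4.05 in normal rats (3.32 ± 0.46). Plk2 (2.94 ± 0.39), the stress sensor Gadd45a (1.76 ± 0.23) and the survival protein Mcl1 (1.63 ± 0.17) also rose. Sesn1, a p53-controlled regulator of metabolism, fell to 2.08, 1.92, 2.33 and 1.80 in ischemia rats, against 3.78, 3.26 and 3.38 in normal rats (-0.78 ± 0.11), and Casp1 was called lower (-0.59 ± 0.16), with an adjusted p of 0.0555 without normal rat 3. Bax (-0.14 ± 0.16) was not called. Of 18 cell cycle genes 3 were called higher (16.7%) and none lower. Ccnl1, a cyclin of RNA processing, was the call that held whichever rat was left out (1.77 ± 0.18). Pcna (0.67 ± 0.21) and Cdc25b (0.59 ± 0.20) were each lost when any one of 5 rats was left out, with adjusted p up to 0.151 and 0.166. The proliferation genes Mki67 (0.16 ± 0.23) and Ccna2 (0.13 ± 0.23) were not called.

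Of 30 hypoxia and glycolysis genes 8 rose and none fell (median 0.08), and 6 calls held whichever rat was left out. The glucose transporter Slc2a1 had 5.48, 5.89, 5.16 and 7.43 in ischemia rats, against 1.77, 2.30 and 2.51 in normal rats (1.45 ± 0.20). Hk2, an inducible hexokinase, was at the floor in all normal rats and at 0.238, 0.313, 0.361 and 0.276 in ischemia rats, at least 2.93-fold higher. Pdk4, which blocks pyruvate entry into mitochondria, rose by 2.06 ± 0.44, the collagen hydroxylase P4ha1 by 1.70 ± 0.21 and the hypoxia target Ankrd37 by 1.64 ± 0.18. The calls of Slc2a3 (adjusted p = 0.0506 without normal rat 2, and another probe at 0.03) and the lactate carrier Slc16a3 (adjusted p = 0.166 without normal rat 3, 0.0941 without ischemia rat 4 and 0.0661 without ischemia rat 2) did not hold. Ldha (0.07 ± 0.20), Pgk1 (-0.04 ± 0.12) and Vegfa (0.15 ± 0.15) were not called. Of 30 genes of fatty acid oxidation and peroxisomes 1 was called higher (3.33%, against 7.95% of all genes) and none lower, with a list median of -0.16. The called gene was the mitochondrial coactivator Ppargc1a, with 3.98, 3.33, 2.46 and 2.64 in ischemia rats and 0.884, 0.846 and 0.602 in normal rats (1.99 ± 0.22). Of 22 genes of gluconeogenesis and amino acid metabolism 1 was called higher (4.55%). This was Srm, and its call was lost whichever rat was left out (adjusted p up to 0.176). Of 16 cholesterol synthesis genes 3 rose (18.8%), and 1 of these calls, that of the synthase Hmgcs1 (0.87 ± 0.22), held whichever rat was left out. The call of Msmo1 (0.51 ± 0.14) was lost without normal rats 2 or 3 or ischemia rat 4 (adjusted p up to 0.0902).

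Of 25 proximal tubule genes none was called higher and 1 lower, the amino acid transporter Slc7a9 (4.15, 4.68, 5.75 and 4.88 in ischemia rats, 7.59, 7.63 and 6.03 in normal rats), whose adjusted p was 0.0546 without normal rat 1 and 0.0542 without normal rat 2. The share called lower was thus 4%, against 6.06% of all genes, and the list median was -0.21. Among 25 loop, distal and collecting duct genes 2 were called higher (8%, against 7.95% of all genes) and 4 lower (16%, against 6.06%). Nr3c2, the mineralocorticoid receptor, fell to 1.15, 1.14, 1.27 and 1.18 in ischemia rats, against 2.41, 1.76 and 2.02 in normal rats (-0.79 ± 0.17). The water channel Aqp4 rose to 5.93, 6.35, 5.01 and 5.06 in ischemia rats, against 3.09, 3.19 and 2.76 in normal rats (0.89 ± 0.20), and these were the calls that held whichever rat was left out. Another probe of Aqp4 changed by 0.60 and was not called (adjusted p = 0.0792). The calcium-sensing receptor Casr (-0.95 ± 0.30; adjusted p up to 0.125), the vasopressin receptor Avpr2 (-0.60 ± 0.19; up to 0.112) and the kinase Wnk1 (-0.51 ± 0.17; up to 0.141) were called lower and were each lost when any one of 6 rats was left out. The calcium-binding protein S100g was called higher (1.45 ± 0.35), and was at 0.97 with an adjusted p of 0.0797 without normal rat 1.

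Of 17 glucocorticoid and clock genes 7 rose and 1 fell (5.88%, against 6.06% of all genes), with a median of 0.46. Of the rises 5 held whichever rat was left out. Per2, a core clock repressor, had 0.676, 0.715, 0.649 and 0.808 in ischemia rats, against 0.353, 0.241 and 0.260 in normal rats (1.34 ± 0.21). Bhlhe41 (1.16 ± 0.20) and the glucocorticoid-induced Tsc22d3 (1.01 ± 0.20) rose as well. Per1 (0.76 ± 0.21) had an adjusted p of 0.0621 without normal rat 2, 0.0615 without ischemia rat 4 and 0.0583 without normal rat 3, and Nr1d2 (0.82 ± 0.28) one of 0.371 without normal rat 1 and of 0.129 and 0.133 without ischemia rats 1 and 2. The glucocorticoid receptor Nr3c1 was called lower (-0.32 ± 0.10), a call lost when any one of 6 rats was left out (adjusted p up to 0.21). The labels used here give no clock time of collection, so time of day was not tested. Of 18 genes of extracellular proteases, matrix and cytoskeleton 8 rose and none fell. The protease Adamts1 had 30.6, 32.6, 29.5 and 25.5 in ischemia rats, against 6.35, 4.14 and 5.31 in normal rats (2.50 ± 0.38), and Arc, a cytoskeleton-associated early gene known from neurons, rose by 2.38 ± 0.27. The matrix protein Tnc (1.08 ± 0.18) and the actin-binding proteins Vcl (0.96 ± 0.16) and Flna (0.83 ± 0.11) followed, and the call that did not hold in every such omission was Itgb1 (0.32 ± 0.10; adjusted p up to 0.141, lost without normal rats 2 or 3 or ischemia rats 1 or 4), whose other probe was not called (0.52). Of 19 genes of RNA and protein turnover 5 rose (26.3%, against 7.95% of all genes) and 1 fell (5.26%, against 6.06%). Among the rises were the nuclear coactivator Pnrc1 (1.51 ± 0.24) and the nucleolar protein Nop58 (0.78 ± 0.10). The member called lower was the RNA polymerase I subunit Polr1b (-0.52 ± 0.16), with an adjusted p of up to 0.147, lost without normal rats 1 or 3 or ischemia rats 2 or 3.

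The labels place the 2 h time before leukocyte infiltration. Of 25 leukocyte genes tested 2 rose (8%, against 7.95% of all genes) and 4 fell (16%, against 6.06%). All 6 calls held whichever rat was left out. S100a9, an abundant neutrophil protein, had 2.31, 2.88, 2.80 and 2.40 in ischemia rats, against 0.290, 0.188 and 0.207 in normal rats (3.53 ± 0.43). The neutrophil receptor Cxcr2 (-0.01 ± 0.19) and the integrin Itgam (-0.07 ± 0.12) were not called. Cd14, the endotoxin co-receptor, rose by 1.21 ± 0.24. The pan-leukocyte phosphatase Ptprc (CD45) had 0.402, 0.463, 0.362 and 0.428 in ischemia rats, against 0.712, 0.640 and 0.683 in normal rats (-0.72 ± 0.16), with another probe not called (-0.55). The macrophage receptor Csf1r had 1.24, 1.19, 0.991 and 1.16 in ischemia rats, against 1.75, 1.43 and 1.82 in normal rats (-0.54 ± 0.11). Ly86, a myeloid partner of a Toll-like protein, fell by 1.37 on the log2 scale and the T cell protein Cd2 by 1.32. The summed level of the 25 genes was 87.3 to 108 in ischemia rats and 99.0 to 111 in normal rats, a sum set mostly by its brightest probes. Leukocyte genes outside the list, among them Clec4a, Evi2a and Cd5, were called lower and are described with the falls. Cd8a, Cd8b, Cd4 and Cpa3 were at the floor in all ischemia rats, with normal means of 0.11 to 0.15. The sum over markers of blood, adrenal gland, fat and muscle was 7.33 to 15.1 in ischemia rats and 5.32 to 7.25 in normal rats. Of these 14 genes 2 rose (14.3%, against 7.95% of all genes). Alas2, the heme synthesis enzyme of red cell precursors, had 1.57, 1.13, 2.20 and 2.69 in ischemia rats, against 0.309, 0.184 and 0.578 in normal rats (2.49 ± 0.44), while the red cell anion exchanger Slc4a1 was not called (0.08 ± 0.12). Csrp3, a muscle LIM protein, was at the floor in normal rats and at 1.10, 1.26, 1.51 and 1.16 in ischemia rats, at least 12.5-fold higher, while the skeletal muscle enzyme Ckm was at 0.404 to 0.467 in ischemia rats and 0.316 to 0.373 in normal rats and was not called. The part of blood cells in these results was not tested. Of 17 genes of endothelium, glomerulus, fibroblast and smooth muscle 1 rose (5.88%, against 7.95% of all genes) and 1 was called lower (5.88%, against 6.06%). The rise was that of Tagln and the lower call that of Tie1 (-0.38 ± 0.13). The call of Tie1 was lost without normal rats 1 or 3 or ischemia rats 1, 2 or 3 (adjusted p up to 0.177) and was not made by its other probe (-0.25).

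Other large rises were single genes of varied role. The kinase Itpkc, which phosphorylates inositol trisphosphate, had 3.42, 3.47, 2.77 and 3.10 in ischemia rats, against 0.329, 0.325 and 0.323 in normal rats (3.29 ± 0.16). Pvr, a cell adhesion receptor of the nectin group, had 1.10, 1.52, 1.74 and 2.36 in ischemia rats and 0.187, 0.135 and 0.229 in normal rats (3.18 ± 0.21). Cgn, the tight junction protein cingulin, had 1.29, 1.29, 1.30 and 1.68 in ischemia rats and 0.158, 0.143 and 0.162 in normal rats (3.16 ± 0.17). Each of these genes separated the groups without overlap, as the choice of the largest rises required. The transcriptional co-regulator Ifrd1 had 44.8, 40.0, 27.9 and 40.0 in ischemia rats and 2.52, 5.64 and 6.19 in normal rats (3.08 ± 0.40, and 2.67 without normal rat 1). Glycam1, a mucin known from lymph node vessels and mammary gland, was measured in 3 ischemia rats, at 0.700, 1.24 and 7.36 in rats 1, 2 and 4, against 0.164, 0.183 and 0.192 in normal rats. Its change of 3.37 ± 0.52 was 2.38 without ischemia rat 4 and 4.07 without ischemia rat 1, both called.

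The falls were smaller and nearer the floor. Clec4a, a C-type lectin receptor of myeloid cells, had 0.110, 0.1, 0.128 and 0.1 in ischemia rats, 2 of them at the floor, against 0.374, 0.493 and 0.391 in normal rats (-1.94 ± 0.30). Cnr1, the cannabinoid receptor CB1, had 0.126, 0.1, 0.169 and 0.103 in ischemia rats and 0.366, 0.345 and 0.415 in normal rats (-1.62 ± 0.26). Evi2a, a membrane protein of blood cells, had 0.122, 0.1, 0.192 and 0.171 in ischemia rats and 0.382, 0.433 and 0.454 in normal rats (-1.58 ± 0.29). These 3 genes were low in both groups, and their folds are limited by the floor. Among brighter genes Purg, a relative of the nucleic acid binding Pur proteins, had 0.366, 0.313, 0.398 and 0.331 in ischemia rats and 1.09, 1.02 and 0.948 in normal rats, with the smallest SE of the 20 largest falls (-1.54 ± 0.12). Tmem204, a junction protein of endothelium, had 2.57, 2.04, 2.22 and 2.45 in ischemia rats and 5.01, 5.34 and 5.17 in normal rats (-1.16 ± 0.14). Gucy1a1, a subunit of the nitric oxide receptor guanylate cyclase, had 0.865, 0.960, 0.904 and 1.10 in ischemia rats and 2.48, 1.60 and 2.34 in normal rats (-1.14 ± 0.21), with another probe not called (-0.86). Gp2, a glycoprotein related to uromodulin, had 1.52, 0.688, 1.16 and 1.06 in ischemia rats and 2.51, 2.93 and 2.60 in normal rats (-1.33 ± 0.23). The falls of Wscd1, Entrep3, Inka1, Mtmr7, Cd5, Chst14 and Arhgef19 lay between -1.35 ± 0.28 and -1.01 ± 0.20. Of the 20 largest falls 16 stayed called whichever rat was left out. Sult1c3, Cdh3 and Adh1c were lost without normal rat 1 (adjusted p = 0.061, 0.0622 and 0.0797) and the interferon-inducible chemokine Cxcl9 without normal rat 3 (0.106).

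**Figure D3:**
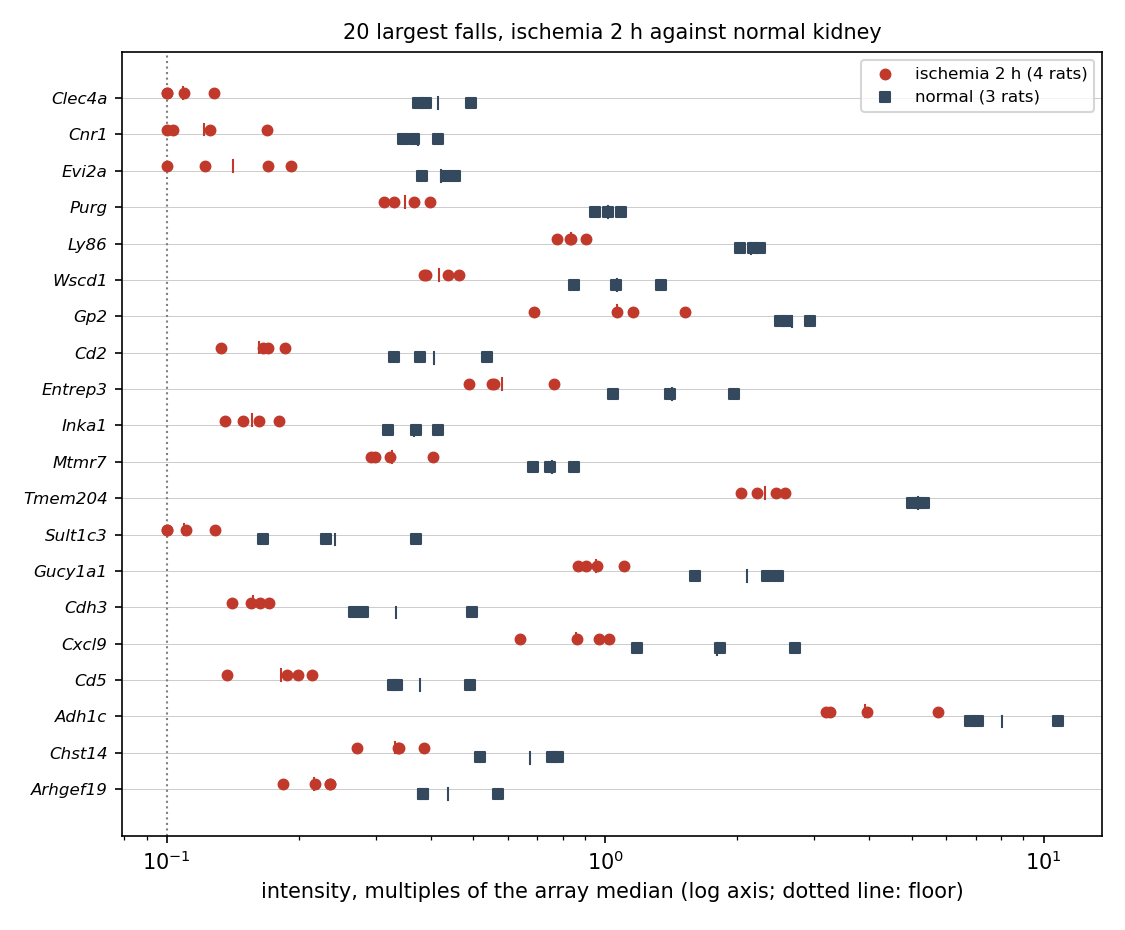
Levels of the 20 genes with the largest falls, in multiples of the array median on a log axis, in 4 ischemia 2 h rats (red circles) and 3 normal rats (dark squares); short vertical lines are group means of log2 values and the dotted line is the floor of 0.1. The ischemia rats lie left of the normal rats for each gene, as the choice of genes required, and Clec4a, Cnr1, Evi2a and Sult1c3 reach the floor in ischemia rats.

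The 4 ischemia rats did not respond alike in every gene. The median SD among them was 0.15 over all genes and 0.19 over genes called higher, against a median SD of 0.20 among normal rats over all genes. Among the 11 chemokines and cytokines called higher, 9 were highest in ischemia rat 3, the rat that was also highest for Selp and Sele. Il6 was 2.32 in that rat and at most 1.11 in the others, and Cxcl1 was 5.15 in that rat and at most 2.13 in the others. Over all 488 genes called higher and measured in every ischemia rat, 128 were highest in rat 3 and 218 in rat 4. Rat 3 was also the lowest of the 4 for 177 of these genes, including Dusp5, Srxn1 and 4 of the 5 genes of the p53 and apoptosis list called higher. The array of rat 3 had 99 probes missing and 8.43% at the floor, against 70 to 97 probes and 9.93% to 11.8% for the other ischemia arrays, and the part of this in its profile was not tested. Ypel4 had 1.66, 1.31, 0.149 and 0.218 in ischemia rats 1 to 4, with all normal rats at the floor. Rats 1 and 2 were thus far above rats 3 and 4, and the call was lost without ischemia rats 1 or 2 or any normal rat (adjusted p up to 0.0877). The lipoxygenase Alox15 showed the opposite order, with 0.243, 0.240, 0.581 and 0.657 in ischemia rats and 0.112, 0.1 and 0.163 in normal rats (1.66 ± 0.43).

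**Figure D4:**
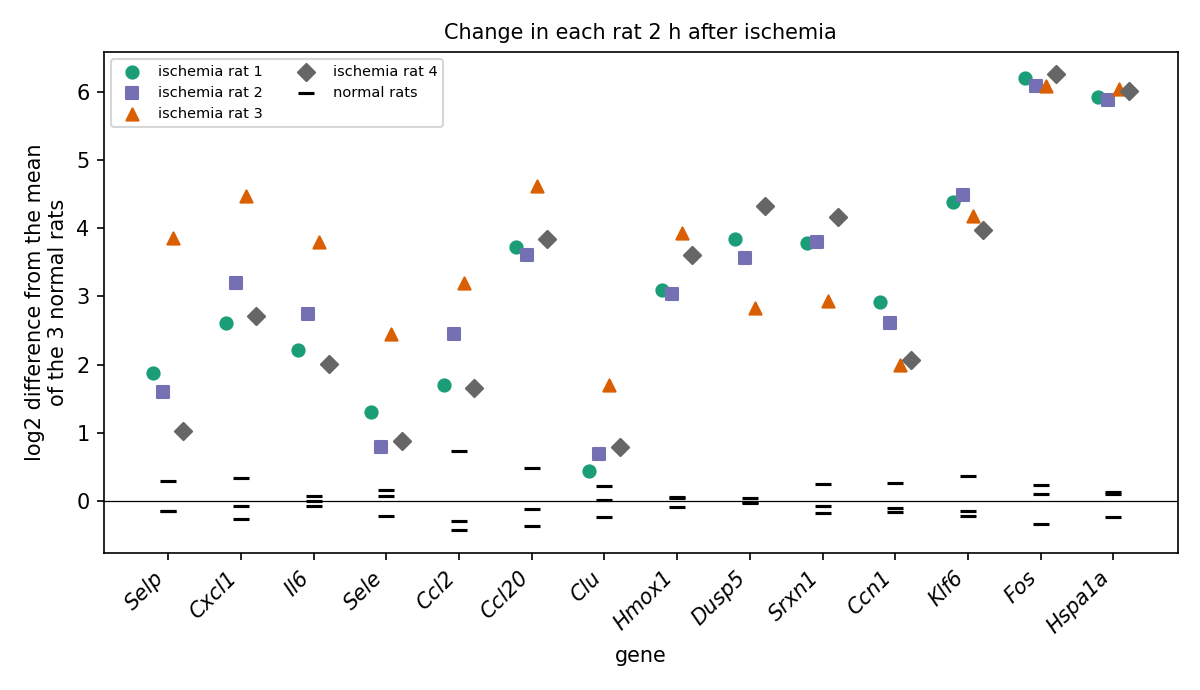
Change in each ischemia 2 h rat, as the log2 difference from the mean of the 3 normal rats, for 14 genes; coloured markers are ischemia rats 1 to 4 and black dashes the normal rats. Ischemia rat 3 (triangles) is highest for Selp, Cxcl1, Il6, Sele and Ccl2 and lowest for Dusp5 and Srxn1, while all 4 rats coincide for Fos and Hspa1a.

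Set against kidneys 8 h after the same ischemia, 1072 of 6196 genes were higher at 2 h (17.3%) and 1334 lower (21.5%). Fos was at 75.6 to 85.2 at 2 h and at 11.1, 9.61 and 12.6 in the 3 rats at 8 h (2.85 ± 0.66). Egr1 was at 5.97 to 9.75 at 2 h and at 2.18, 1.76 and 1.81 at 8 h (2.12 ± 0.56), and Ccn1 at 3.79 to 7.14 at 2 h and at 2.08, 0.828 and 1.10 at 8 h (2.02 ± 0.27). Tppp3, a tubulin polymerization protein, was at 1.86 to 2.98 at 2 h and at 0.446, 0.421 and 1.07 at 8 h (2.00 ± 0.26). In the opposite direction, Lcn2 was at 0.988 to 1.73 at 2 h and at 10.05, 13.4 and 10.7 at 8 h (-3.19 ± 0.22). Il24 was at 0.253 to 0.348 at 2 h and at 3.19, 2.18 and 2.55 at 8 h (-3.11 ± 0.20). Clu, a secreted chaperone of injured tubules, was at 2.90 to 6.91 at 2 h and at 35.0, 19.8 and 9.24 at 8 h (-2.22 ± 0.30). None of these 7 genes overlapped between the times, but they were chosen for a large difference, so this is no further result. Havcr1, which was not called at 2 h against normal, was at 0.669 to 1.21 at 2 h and at 19.6, 21.99 and 33.6 at 8 h (-4.63 ± 0.39). Hspa1a did not differ beyond the error, with 88.7 to 99.6 at 2 h and 82.8, 96.4 and 84.8 at 8 h (0.10 ± 0.32, adjusted p = 0.836). The array of 8 h rat 3 stood apart from its group (median correlation 0.926, 1.65% of probes at the floor). Without it the 16 genes with the largest differences among those also called at 2 h against normal stayed called, and the difference of Clu became -2.72 and that of Tppp3 2.44.

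Mercuric chloride, which poisons proximal tubule cells, was injected without renal surgery and studied at the same 2 h. All comparisons with other groups use the same ischemia rats. Of 6187 genes 567 were higher after ischemia (9.16%) and 321 lower (5.19%). Fos was at 3.64, 2.07 and 1.82 in mercuric chloride rats (5.05 ± 0.66), and Klf4 at 5.66 to 8.05 in ischemia rats and 0.670, 0.644 and 0.529 in mercuric chloride rats (3.48 ± 0.19). Itpkc was at 2.77 to 3.47 in ischemia rats and 0.368, 0.349 and 0.336 in mercuric chloride rats (3.18 ± 0.16). Plaur was at 2.18 to 2.59 in ischemia rats and 0.371, 0.275 and 0.241 in mercuric chloride rats (3.05 ± 0.20). Csrp3 was at the floor in mercuric chloride rats as in normal rats. The opposite held for Hmox1, at 7.10 to 13.2 in ischemia rats and 84.9, 76.3 and 81.9 in mercuric chloride rats (-3.13 ± 0.28), and for Chac1, at 2.26 to 4.21 in ischemia rats and 11.8, 14.4 and 8.37 in mercuric chloride rats (-1.83 ± 0.18). Atf3 reached 34.9 to 48.2 in ischemia rats and 36.0, 36.2 and 26.9 in mercuric chloride rats, which did not differ beyond the error (0.39 ± 0.44, adjusted p = 0.668). Hspa1a was at 60.1, 41.2 and 49.5 in mercuric chloride rats (0.92 ± 0.32, adjusted p = 0.0567).

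Volume depletion lowers the circulating volume without interrupting the blood flow of the kidney. Of 6187 genes 618 were higher after ischemia (9.99%) and 620 lower (10%). Hspa1a was at 1.20, 2.83, 3.59 and 2.24 in the 4 volume depleted rats (5.36 ± 0.30). Klf6 was at 0.834, 1.14, 1.30 and 1.19 (4.12 ± 0.37) and Chac1 at 0.190, 0.216, 0.209 and 0.156 (4.05 ± 0.16). Each of these genes was below all ischemia rats, but they were chosen for a large difference. Lcn2 was at 0.868, 1.16, 1.93 and 1.23 in volume depleted rats, with a difference of -0.01 ± 0.20 from ischemia rats. Fos differed between the volume depleted rats, at 0.428, 1.63, 5.81 and 1.51, the highest of them in rat 3. Among genes called lower against both groups, and chosen for that, Clec4a (-1.86 ± 0.28), Purg (-1.49 ± 0.11) and Gp2 (-1.57 ± 0.21) were among the 8 largest differences, in a comparison that shares the ischemia rats. Without the first array of volume depleted rat 1, whose median correlation with its group was 0.968, the 16 genes with the largest differences among those also called against normal stayed called.

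**Figure D5:**
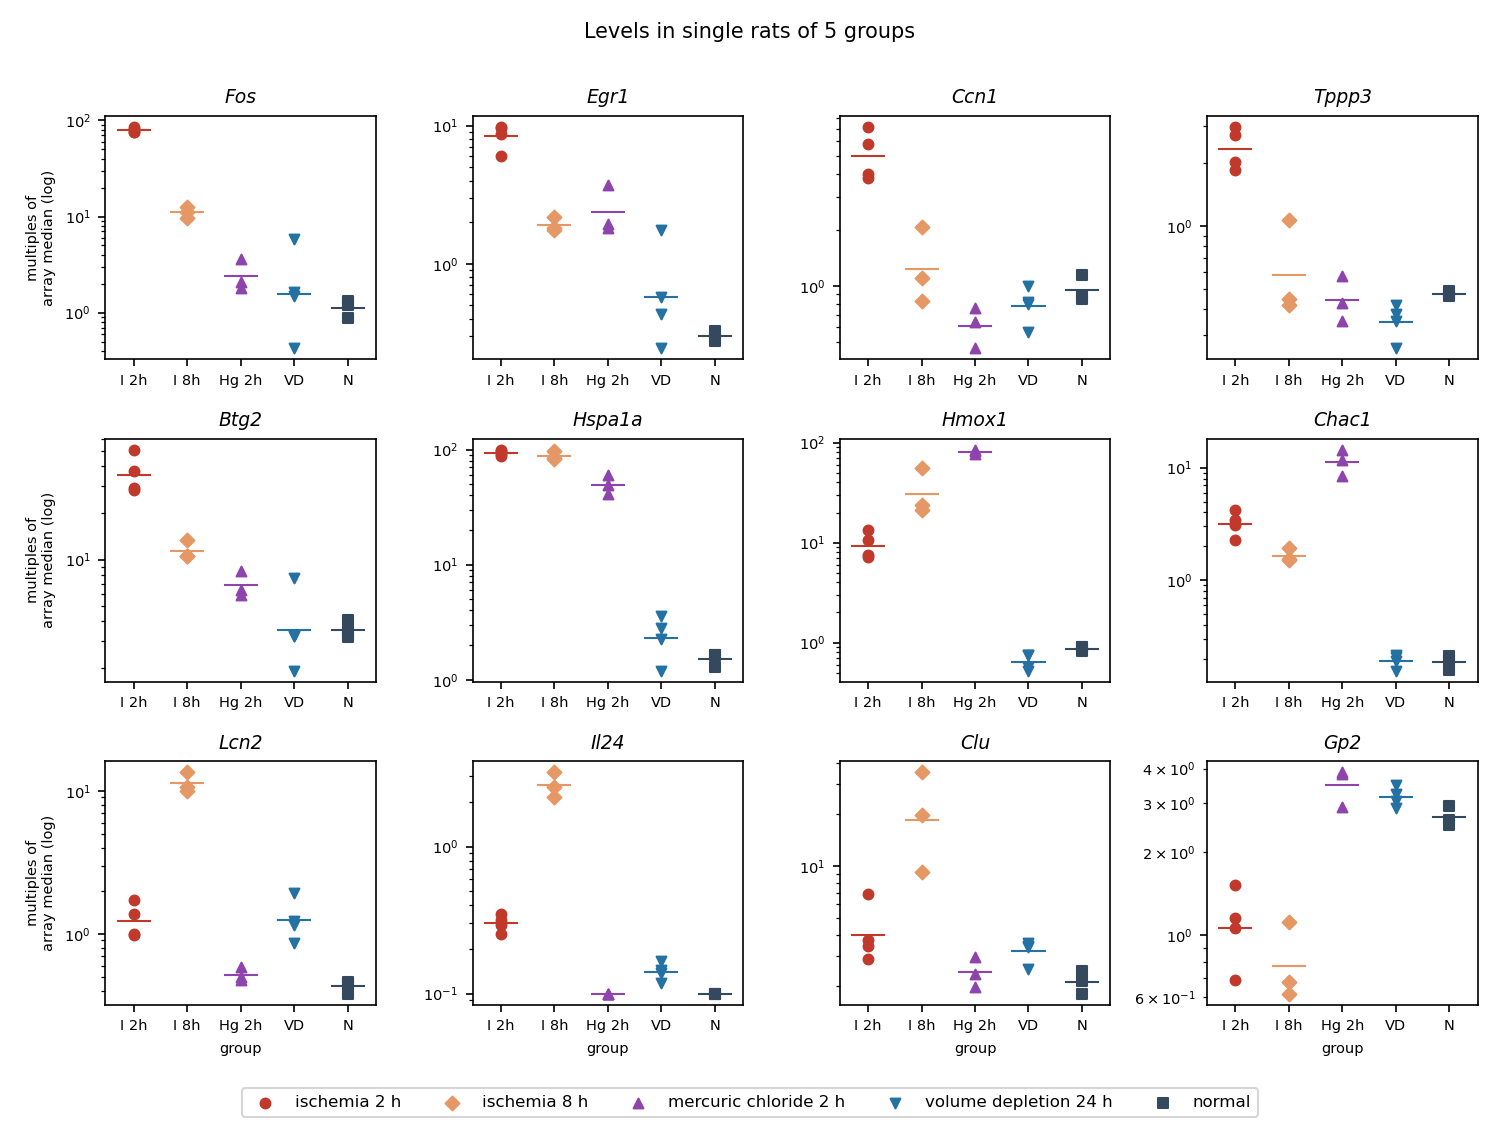
Levels of 12 genes in single rats, in multiples of the array median on log axes that differ between panels, after ischemia at 2 h (4 rats) and 8 h (3 rats), mercuric chloride at 2 h (3 rats), volume depletion at 24 h (4 rats) and in normal rats 1 to 3; horizontal lines are group means of log2 values. Fos, Egr1, Ccn1 and Tppp3 are highest at 2 h of ischemia, Hmox1 and Chac1 are highest after mercuric chloride, and Lcn2, Il24 and Clu are highest at 8 h of ischemia.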

How the data were processed

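The deposited table gave 1 value per probe and array for 9911 probes on 36 arrays. Per the labels, biotin-labelled RNA was hybridised by the CodeLink standard protocol. The scale of the deposited values is not given in the sources used here and was recorded as other. The log2 of the values the authors deposited behaved as a linear intensity divided by the array median, with array medians between 0.999 and 1.00, and 0.5 filled 0.969% of cells. The column of sham rat 3 was shifted by 2 lines and was realigned. It correlated at 0.0652 with the median over other arrays before the shift was undone and at 0.984 after.

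Log2 of the deposited values was divided by the array median, values under 0.1 were set to 0.1, and log2 was taken again. The 2 arrays of a rat were averaged. limma 3.58.1 in R 4.3.3 was fitted over 31 rats in 10 groups (21 residual degrees of freedom), with normal rats 11 and 12 as a group of their own. A probe was tested if at least 2 rats of each group compared had a value and at least 3 rats were above the floor. A value in at least 2/3 of all 31 rats was also required. Of 9911 probes 7229 had 1 gene symbol, 21 several and 2661 none, and the brightest probe stood for a gene. Benjamini-Hochberg adjustment was over all probes tested, 9466 for the comparison with normal. In data simulated for that comparison, 88 of 99 probes changed 2-fold and 49 of 100 changed 1.5-fold were called. The changed probes all had a mean level above the array median, so these shares do not apply to genes near the floor. The precision stated here is that of the number of rats, and the floor and the choice of probe limit it further.

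Named genes were drawn from the 30 largest rises and 20 largest falls among called genes that did not overlap between groups, the 8 largest differences in each direction from each of 3 other groups among genes also called against normal, 10 called genes with the largest spread among ischemia rats, and members of 25 gene lists. The comparisons and lists were chosen with earlier results of these data known. Replicate numbers were not used as pairs, and deviations of rats with the same number correlated at -0.00736, 0.266 and 0.268. Alternatives were the floor, the normalization, the low-value filter, the rats in the fit, the normal rats and leaving out each rat. Promoter sequences came from RefSeq (GRCr8). Some genes of the lists are counted but not reported here by name.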

Additional observations from a re-analysis of the deposited data

Results flagged for a closer look

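The largest differences between the 2 times of reperfusion, among genes also called at 2 h against normal, are given here. Ischemia at 2 h was compared directly with ischemia at 8 h, and each difference between the times passed the test, as the choice of these genes required. Higher at 2 h than at 8 h, on the log2 scale, were Fos (2.85), Egr1 (2.12), Ccn1 (2.02), Tppp3 (2.00), Epm2aip1 (1.74), Gcm1 (1.66), Tle2 (1.65) and Btg2 (1.63). Lower at 2 h than at 8 h were the injury genes Lcn2 (-3.19) and Clu (-2.22), the cytokine Il24 (-3.11), the mitochondrial folate enzyme Mthfd1l (-2.27), the RNA polymerase I subunit Polr1b (-1.90), the myeloid lectin Clec4a3 (-1.90), Lypd3 (-1.86) and Ms4a7 (-1.86), a membrane protein of macrophages. Polr1b, Clec4a3 and Ms4a7 were also called lower at 2 h than in normal rats, with overlap between the groups in Clec4a3 (-1.06, and -0.52 with an adjusted p of 0.276 without normal rat 3). Tle2, though higher at 2 h than at 8 h, was called lower at 2 h than in normal rats as well (-0.66). All 16 differences stayed called without 8 h rat 3, whose array stood apart, with Epm2aip1 at 1.45 and Ms4a7 at -1.56. Against normal, the 2 h calls of Gcm1, Tle2, Mthfd1l, Clu, Polr1b, Clec4a3 and Ms4a7 did not hold in every omission of a rat.

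The tight junction gene Cgn had 1 ischemia rat apart from the other 3. Rat 4 stood highest, and its gap to the nearest rat was 0.959 of the range over the 4 rats, against a critical value of 0.829. This was 1 of 56 genes checked, and chance gives about 1 in 20.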

How the results depend on the processing

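Of 202 called genes followed over all alternatives (4021 gene and setting pairs), 3669 pairs kept direction and call, 352 kept direction but lost the call and none changed sign. Flt1, which was not called with its brightest probe (-0.07), was 0.40 with an adjusted p of 0.0276 in limma as the mean of its probes. The other probe of Flt1 changed by 0.88 and was called higher (limma, adjusted p = 0.00488). With only the 7 rats compared, 449 probes and 221 genes were called lower, against 698 and 375 in the fit over all rats. With all 5 normal rats 563 genes were called lower, and the log2 changes of Fos (6.88), Ccn1 (3.08), Ccn2 (2.00) and Gdf15 (1.54) were larger than with 3 (6.16, 2.40, 1.25 and 0.92). Leaving out 1 rat gave 528 to 665 probes higher and 352 to 688 lower, and 374 to 461 genes higher and 177 to 379 lower, with the fewest falls (352 probes, 177 genes) without normal rat 1. In the other comparisons an ischemia 2 h rat or 8 h rat 3 was left out: against ischemia at 8 h the range was 1414 to 1969 probes higher and 1651 to 1847 lower, against mercuric chloride 629 to 691 higher and 527 to 564 lower, and against volume depletion 746 to 837 higher and 703 to 857 lower. The replicate number as a block, with rats 1 to 3 of each group, gave 379 probes higher and 127 lower (271 and 54 genes), and the same rats without the block 430 and 227 (301 and 105 genes), a fit added after the data were seen. In deviations from their group means, ischemia rats 2 and 3 correlated best with the normal rat of their own number (0.266 and 0.268). Ischemia rat 1 correlated best with normal rat 2 (0.164, against -0.00736 with normal rat 1). With 3 rats per group these values cannot decide whether the numbers pair the rats. The cause of these shifts was not tested.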

Other observations

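Genes outside the lists above, chosen after their values were seen, also rose at 2 h. Among signalling genes these were the scaffold Akap12 (2.54 ± 0.22), the sphingosine kinase Sphk1 (2.33 ± 0.20), the BMP and TGF-beta pseudoreceptor Bambi (2.47 ± 0.26), the transcriptional repressor Tgif1 (2.20 ± 0.42) and the protease-activated receptor F2rl1 (2.11 ± 0.26). On the coagulation side the prothrombinase-like Fgl2 (2.51 ± 0.17) and the protein C receptor Procr (1.63 ± 0.22) were higher. Tight junction claudins Cldn3 (1.53 ± 0.28) and Cldn7 (1.51 ± 0.19) rose, as did the necroptosis kinase Ripk3 (1.07 ± 0.12), the cell cycle kinase Wee1 (1.70 ± 0.13) and the cyclic AMP responsive factor Crem (1.33 ± 0.17). Lcp2, an adaptor of lymphocyte and myeloid receptors, fell (-0.93 ± 0.21). Changes are given as log2 ± SE (limma, ischemia minus normal). In each of these genes the ischemia rats did not overlap the normal rats, but the genes were picked with their values known. This is therefore no further result, and over all genes tested 10.9% lay above and 14.1% below the normal rats with no overlap.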
